A study of Mus musculus with 1 sample.

Results

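Cycling endothelial cells of the postnatal mouse adrenal medulla are described here from 1 single-cell RNA sequencing library. A barcode was counted as such a cell when it had a unique molecular identifier (UMI, 1 count for 1 captured mRNA molecule) of at least 4 of 7 endothelial genes (*Emcn*, *Cd34*, *Pecam1*, *Cdh5*, *Kdr*, *Plvap* and *Egfl7*) and of at least 3 of 6 cell cycle genes (*Cenpf*, *Cks2*, *Prc1*, *Hmgb2*, *Birc5* and *Ube2c*). It also had to show under 4 of 7 chromaffin genes and under 5 of 9 steroidogenic cortex genes, 500 to 5000 detected genes and at most 20% mitochondrial UMIs. This gave 355 cells of the 10139 that passed the filters on barcodes. The members were thus chosen by the measured UMIs of these genes, whose levels in them are given only as a description. The rule without its filters on detected genes and mitochondrial UMIs found 356 barcodes, of which 1 had over 20% mitochondrial UMIs and 0 had over 5000 genes. A further 120 barcodes with both gene sets were left out by the limits on chromaffin or cortex genes.

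The library came from the pooled medullae of 10 adrenals of 5 untreated wild-type mice of both sexes, of mixed background backcrossed on CD1, at postnatal day 15. Fat and excess cortex were trimmed by hand before enzymatic digestion, and 10000 viable cells were used. The matrix held 51421499 UMIs of 32285 genes in 11214 barcodes. With 1 library of pooled animals there was no replicate and no test between samples, so every interval given is a 95% interval for counting error only.

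Endothelial cells line the blood vessels. In the adrenal gland most of them form fenestrated capillaries, whose pores carry diaphragms built from PLVAP, and their growth is driven by VEGF acting on the receptor KDR. A dividing cell passes from G1, where D-type cyclins act, through DNA replication in S phase, where cyclin E and then cyclin A act, to mitosis, which cyclin B with CDK1 sets off.

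The start regions of 6 genes described further on are shown first, 4 of mitotic genes and 2 of DNA replication genes, since the cells were chosen by cell cycle genes. Mitotic genes are known to carry CCAAT boxes, which NF-Y binds, and a TTTGAA element, which the MuvB complexes bind close to the start. Replication genes are known for E2F sites. The 4 mitotic genes were taken from 8 named genes with CCAAT and TTTGAA in the printed window. The 2 replication genes came from 9 with an E2F spelling there, so all 6 hold these letters by choice. Each sequence is 130 bases long, 110 before the RefSeq start and 20 after it, 5′ to 3′ on the gene's strand in GRCm38.p6. Capitals mark CCAAT or TTTGAA, on either strand, in the first 4 sequences, and an E2F spelling in the last 2 (GGCGGGAA, TTTGGCGC, TTTCCCGC or TTTCGCGC, on either strand; these spellings can overlap each other).
*Ccnb2* (cyclin B2, chr9:70421535-70421664, minus strand): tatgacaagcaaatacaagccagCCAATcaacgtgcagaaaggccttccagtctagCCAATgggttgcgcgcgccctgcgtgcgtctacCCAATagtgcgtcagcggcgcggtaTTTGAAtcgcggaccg
*Top2a* (topoisomerase II alpha, chr11:99024170-99024299, minus strand): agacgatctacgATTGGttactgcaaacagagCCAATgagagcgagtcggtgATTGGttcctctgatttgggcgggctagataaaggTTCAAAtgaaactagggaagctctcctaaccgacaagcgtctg
*Cdca8* (borealin, chr4:124936898-124937027, minus strand): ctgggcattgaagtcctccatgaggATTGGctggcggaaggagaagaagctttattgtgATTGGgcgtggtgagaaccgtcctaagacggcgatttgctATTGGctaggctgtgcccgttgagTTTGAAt
*Racgap1* (centralspindlin subunit, chr15:99651637-99651766, minus strand): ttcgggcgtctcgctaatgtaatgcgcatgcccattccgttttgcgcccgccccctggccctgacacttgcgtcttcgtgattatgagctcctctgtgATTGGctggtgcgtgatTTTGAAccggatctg
*Rrm1* (ribonucleotide reductase large subunit, chr7:102441585-102441714, plus strand): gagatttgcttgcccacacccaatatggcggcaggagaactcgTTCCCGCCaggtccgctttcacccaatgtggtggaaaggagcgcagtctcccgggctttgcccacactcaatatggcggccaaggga
*Mcm6* (replicative helicase subunit, chr1:128359686-128359815, minus strand): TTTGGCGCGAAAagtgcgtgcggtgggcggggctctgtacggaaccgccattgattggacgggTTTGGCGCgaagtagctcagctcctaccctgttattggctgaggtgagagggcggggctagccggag

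The 3 CCAAT boxes of *Ccnb2* began 87, 54 and 21 bases before the start, 33 bases apart, with TTTGAA 5 bases after it. Those of *Top2a* began 98, 78 and 58 bases before the start, 20 bases apart. Of the 20 genes with the largest ratios named further on, 14 matched a RefSeq start region, and 12 of these 14 (85.7%) held CCAAT within 250 bases before to 20 bases after the start. TTTGAA was in 9 of the 14 (64.3%), and all 9 also held CCAAT. Across all 32851 start regions of the table, 35.4% held CCAAT, 16.8% held TTTGAA and 6.13% held both. The genes of spindle and cytokinesis had TTTGAA in 16 of 22 start regions (72.7%), those of mitotic cyclins and kinases in 4 of 13 (30.8%), those of the kinetochore in 4 of 21 (19.0%), those of DNA replication in 12.5% of 40 regions, and endothelial genes outside the rule in 14.3% of 14. CCAAT was in 84.6% of the regions of mitotic cyclins and kinases, 76.2% of kinetochore, 60% of replication, 59.1% of spindle and 35.7% of endothelial regions. An E2F spelling was in 15 of the 40 regions of replication genes (37.5%), against 3.18% of all regions. These matches are a description of letters in a window, and binding was not measured.

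The label was checked on 2 proliferation genes that the rule did not use. *Mki67*, which codes for the proliferation antigen Ki-67, had 935 UMIs in the 355 cells, a level of 596 CPM (interval 559 to 636; CPM are the UMIs of a gene scaled to a group total of 1000000), and was detected in 76.3% of them. In the 836 endothelial cells with none of the 6 cell cycle genes, called non-cycling here, it had 10 UMIs, 5.92 CPM (2.84 to 10.9), in 1.08% of cells. *Top2a*, which untangles DNA strands in S phase and mitosis, stood at 703 CPM (662 to 746) against 16.6 CPM (11.02 to 24.0), in 83.7% and 2.99% of cells. After each cell was thinned to 1000 UMIs, *Mki67* was detected in 42.9% of cycling and 0.554% of non-cycling endothelial cells, and 0.651% of unthinned non-cycling chromaffin cells had a UMI of it. *Kdr* was detected in 93.8% of the cycling cells (1286 CPM) and *Plvap* in 86.8% (707 CPM), but the rule used both genes, so their presence is a description and no check. Endothelial genes outside the rule are given further on.

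**Figure D1:**
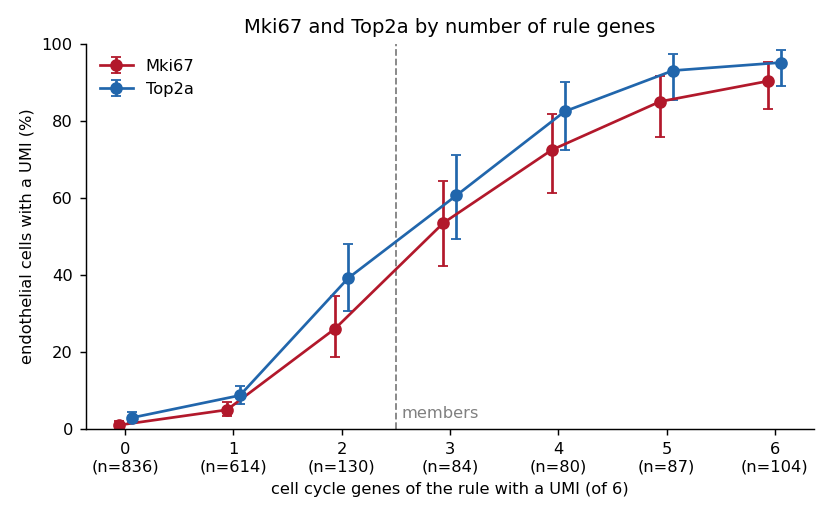
Share of endothelial cells with a UMI of *Mki67* (red) or *Top2a* (blue) (%, vertical axis) by how many of the 6 cell cycle genes of the rule the cell had (horizontal axis), with 95% Clopper-Pearson intervals and the members to the right of the dashed line. For *Mki67* the share was 1.08% with 0 genes, 26.2% with 2, 53.6% with 3 and 90.4% with 6.

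The number of cell cycle genes per cell was spread evenly over the members. Of the 355 cells, 84 had 3 of the 6 genes, 80 had 4, 87 had 5 and 104 had all 6. *Mki67* stood at 223, 547, 731 and 784 CPM in these 4 sets, and was detected in 53.6%, 72.5%, 85.1% and 90.4% of their cells. Just outside the threshold, the 130 endothelial cells with 2 of the 6 genes had *Mki67* at 108 CPM, in 26.2% of cells, and *Top2a* at 185 CPM against 314 CPM in the cells with 3. *Kdr* stood between 1114 and 1422 CPM in the 4 sets of members, with no order by the number of cell cycle genes. On the endothelial side, 163 members had all 7 endothelial genes, 94 had 6, 61 had 5 and 37 had 4. The rule left out 17 cycling cells with only 3 endothelial genes. *Kdr*, which the rule used, stood at 679 CPM in them and at 659 CPM in the 37 cells with 4. *Flt1*, outside the rule, stood at 198 CPM (79.7 to 408) in the 17 cells and at 518 CPM (376 to 695) in the 37.

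The cycling cells were deeper than the cells they were set against. They had a median of 3848 UMIs (821 to 15931) and 1836 genes per cell, and the non-cycling cells had medians of 1678.5 UMIs and 984.5 genes. A cell with few UMIs is less likely to show any of the 6 genes, and the cause of the depth gap was not tested. Median mitochondrial shares were alike, at 2.56% and 2.63%. The caller Scrublet marked 11 of the 355 cycling cells (3.10%) and 19 of the 836 non-cycling cells (2.27%) as doublets, against 6.68% of all cells kept.

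Cycling cells made up 355 of the 1935 endothelial cells, 18.3% (16.6% to 20.1%). By the same 6 genes 117 of 2675 chromaffin cells (4.37%, 3.63% to 5.22%) and 275 of 3160 cortex cells (8.70%, 7.74% to 9.74%) were cycling. Median depth differed, at 2306, 3380 and 5430.5 UMIs, so each cell was also thinned to 2000 UMIs, which left out 809 endothelial, 457 chromaffin and 132 cortex cells. Lineages were kept as from full counts. Of cells cycling by full counts, 301 of 355 endothelial, 111 of 117 chromaffin and 273 of 275 cortex cells reached 2000 UMIs. The thinned shares are thus of the deeper cells only. The share was then 19.8% (17.5% to 22.3%) in endothelial cells, 3.11% (2.43% to 3.92%) in chromaffin cells and 5.32% (4.54% to 6.18%) in cortex cells. The endothelial interval lay above the other two before and after thinning. *Mki67*, outside the rule, was detected at that depth in 19.5% of endothelial, 2.34% of chromaffin and 5.09% of cortex cells. Trimming of the cortex and the digestion decide which cells enter the suspension, and the shares are of captured cells in 1 library.

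**Figure D2:**
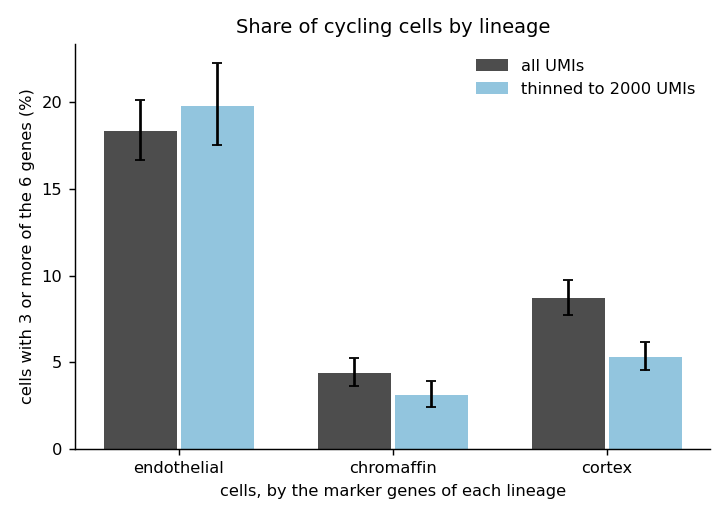
Share of cells with at least 3 of the 6 cell cycle genes (%, vertical axis) among endothelial, chromaffin and cortex cells, from all UMIs (dark) and after thinning each cell to 2000 UMIs (blue); error bars are 95% Clopper-Pearson intervals. Endothelial cells stood at 18.3% and 19.8%, above chromaffin (4.37% and 3.11%) and cortex cells (8.70% and 5.32%) in both counts.

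Cycling and non-cycling endothelial cells were then compared over the 12528 genes with a UMI in at least 1% of all cells kept. A gene was counted as higher or lower when the ratio of its 2 levels was at least 2 or at most 0.5 after 10 CPM had been added to both, which understates the ratio of low genes. Higher in cycling cells were 282 genes (2.25% of those compared) and lower were 24 (0.192%), and the median ratio of all genes was 0.992. The rule chose the cells by cell cycle genes in this same contrast, so these values describe the cells and nothing is read from the counts. The order of the cell cycle lists below likewise depends on which 6 genes were used, and is no measure of phases. Endothelial cells with 2 of the 6 genes, in neither group, had the replication gene *Tyms* at 148 CPM, beside 168 CPM in the members. *Rrm2* stood at 26.4 against 74.0 CPM and *Ccnb2* at 32.5 against 152 CPM in the same cells. Of the 282 genes, 6 were the cell cycle genes of the rule, at 0 in non-cycling cells by construction, 121 were in the 8 cell cycle lists, 5 were in other lists and 150 were in none.

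**Figure D3:**
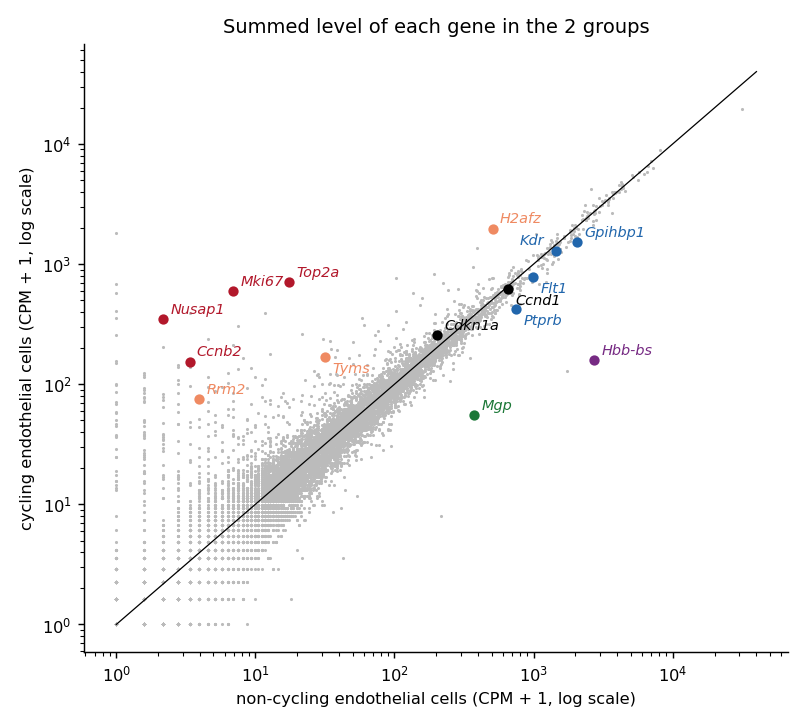
Summed level of each gene in non-cycling (horizontal axis) and cycling (vertical axis) endothelial cells, as CPM plus 1 on log axes, with the line of equal levels and named genes in colour. Cell cycle genes such as *Mki67* (596 against 5.92 CPM) lie far above the line, *Mgp* and *Hbb-bs* lie below it, and *Kdr* and *Ccnd1* lie close to it.

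Genes of the mitotic spindle and of cytokinesis had the highest median ratio of any list outside the rule, 8.57, with all 22 members that were compared (of 23) higher. *Nusap1*, which bundles spindle microtubules, stood at 347 CPM against 1.18 CPM and was detected in 63.9% of cycling cells. *Tpx2*, which activates Aurora A on the spindle, had 306 CPM against 6.52 CPM, 47.0-fold higher (26.0 to 94.8). *Hmmr*, a spindle-associated hyaluronan receptor, had 244 UMIs in cycling cells and 0 in non-cycling cells, at least 87.6-fold higher against a floor of 3 UMIs over the group, with a 95% lower limit for counting error of 70.7. *Ckap2l*, a further spindle protein, stood at 145 CPM against 1.78 CPM.

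Kinetochore and centromere genes, which attach chromosomes to the spindle, were higher in 17 of 19 members with a median ratio of 7.51. *Cdca8*, a subunit of the chromosomal passenger complex, had 238 CPM against 3.55 CPM, 66.9-fold higher (30.5 to 184). *Cenpe*, a kinetochore motor, had 213 CPM against 5.92 CPM, and *Knl1*, a scaffold for checkpoint proteins, had 139 CPM against 1.78 CPM. *Cenpa*, the histone H3 variant that marks centromeres, had 229 CPM and also 33.2 CPM in non-cycling cells. The 2 members inside the 2-fold limit were *Bub3* (177 against 95.4 CPM) and *Zwint* (35.1 against 22.5 CPM).

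Mitotic cyclins and kinases were higher in 17 of 18 members, with a median ratio of 4.72. *Ccna2* (cyclin A2) had 234 UMIs in cycling cells, 149 CPM, and 0 UMIs in non-cycling cells, at least 84.0-fold higher by the same floor (lower limit 67.8). *Ccnb1* (cyclin B1) likewise had 156 UMIs against 0, at least 56.0-fold higher (lower limit 45.0), and *Ccnb2*, whose start region is printed above, had 152 CPM against 2.37 CPM, 64.3-fold higher (24.8 to 238). *Cdk1*, the kinase that both cyclins activate, stood at 113 CPM against 8.88 CPM, 12.7-fold higher (7.50 to 23.2). The one member not counted as higher was *Mybl2*, a transcription factor, at 11.5 against 2.96 CPM. Each of these cyclins was detected in 30.4% to 43.1% of cycling cells.

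Chromosome structure genes were higher in 16 of 19 members, with a median ratio of 3.82. *Mki67* and *Top2a* led the list, with ratios of 38.1 and 26.8 after 10 CPM was added. *H2afz*, the histone variant H2A.Z, was detected in 100% of cycling and 57.2% of non-cycling cells and stood at 1964 CPM (1895 to 2034) against 507 CPM (474 to 542). *Hmgb1*, an abundant chromatin protein, had 1770 CPM against 1032 CPM, a ratio of 1.71 that did not reach the limit. The other 2 members inside it were the cohesin subunits *Smc3* and *Smc1a*, at ratios of 1.58 and 1.57.

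DNA replication genes were higher in 27 of 39 compared members (of 40), with a median ratio of 2.53. *Tk1* (thymidine kinase) had 94.4 CPM against 4.74 CPM and *Rrm2*, the small subunit of ribonucleotide reductase, had 74.0 CPM against 2.96 CPM. The 2 members with the most UMIs in cycling cells were also present in non-cycling cells. *Dnmt1*, which copies DNA methylation onto the new strand, stood at 195 CPM against 71.1 CPM, and *Dut*, which keeps uracil out of DNA, at 175 CPM against 69.9 CPM. *Rrm1* (127 against 25.5 CPM) was counted as higher and *Mcm6* (89.3 against 48.0 CPM) was not, though the printed window of each held an E2F spelling.

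DNA repair genes were higher in 10 of 11 compared members (of 12), with a median of 2.59. *Pclaf*, a partner of the replication clamp PCNA, led with 390 CPM against 10.7 CPM. Genes of mitotic exit and of the anaphase-promoting complex were higher in 6 of 10 members, with a median of 3.33. *Pttg1* (securin) had 164 CPM against 7.11 CPM and *Cdc20*, an activator of the complex, had 113 CPM against 3.55 CPM. *Anapc11*, a catalytic subunit of the complex, had 253 CPM against 195 CPM. Its ratio of 1.28 was inside the limit, as were those of the subunits *Anapc13* and *Cdc26* and of the activator *Fzr1*.

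Genes that act in G1 and at the entry to S phase were higher in 6 of 16 members, with a median of 1.65. The D-type cyclins, which start the cycle, were not among them. *Ccnd1* was abundant in both groups, at 620 CPM (582 to 660) and 659 CPM (620.5 to 699), and *Ccnd2* stood at 318 CPM against 454 CPM. *Ccne2* (cyclin E2) had 31.9 CPM against 4.74 CPM, and *E2f8*, a repressor in the E2F family, had 37 UMIs against 0, at least 13.3-fold higher (lower limit 10.3).

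Inhibitors of cyclin-dependent kinases and quiescence genes had a median ratio of 0.996 over 14 compared members (of 16), with 3 higher and 0 lower. The 3 were *Cdkn3* (72.1 against 0.592 CPM), a phosphatase that acts on CDKs, *Cdkn2c* (p18, 56.1 against 9.48 CPM) and *Cdkn2d* (p19, 74.0 against 17.8 CPM). *Klf2*, a flow-induced transcription factor of quiescent endothelium, had 591 CPM against 677 CPM, and *Btg1*, an antiproliferative factor, had 365 CPM against 504 CPM. *Cdkn1a* (p21) and *Cdkn1b* (p27), named after their values were seen, stood at 255 against 201 CPM and at 58.7 against 52.7 CPM.

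**Figure D4:**
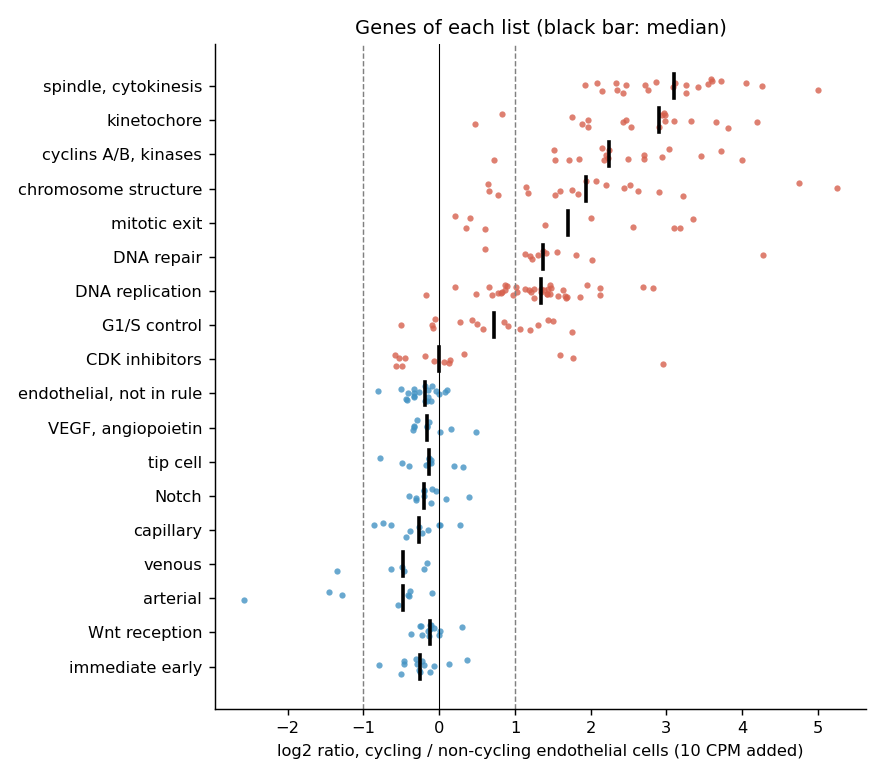
Log2 ratio of levels in cycling against non-cycling endothelial cells after adding 10 CPM to both (horizontal axis), 1 point per compared gene, by list (vertical axis), with a black bar at the median of each list and dashed lines at 2-fold. As ratios, medians ran from 8.57 for spindle and cytokinesis to 1.65 for G1 and S-phase entry, and stood at 0.877 for endothelial genes outside the rule.

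The 20 genes with the largest ratios were taken among the 2441 genes detected in at least 25% of either group. Besides the genes described above they included *Kif23* and *Racgap1*, the 2 subunits of centralspindlin, which builds the midzone where the cell divides, at 140 and 138 CPM against 2.37 CPM each. *Aspm*, a spindle pole protein, had 114 CPM against 0.592 CPM, and *Pimreg* had 123 CPM against 0.592 CPM. The linker histone gene *Hist1h1b* stood at 387 CPM (357 to 419) against 2.37 CPM, and the H2A genes *Hist1h2ap* and *Hist1h2ae* at 205 and 119 CPM against 1.18 and 0.592 CPM. Most mRNAs of such histone genes lack the poly(A) tail that this assay captures, so their levels cannot be set against those of other genes. Among genes at least 2-fold higher, 13 had Hist symbols.

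The members were then sorted by the cyclins they had a UMI of, in the order in which cyclins act. Cyclin E (*Ccne1* or *Ccne2*) without cyclin A or B was seen in 24 cells (6.76%) and *Ccna2* without cyclin B in 56 (15.8%). *Ccnb1* or *Ccnb2* was seen in 195 cells (54.9%) and none of these cyclins in 80 (22.5%). The members had been chosen by cell cycle genes, so the sizes of the classes depend on which genes the rule used. The sizes are therefore no measure of how dividing endothelial cells are spread over the phases. Summed over 40 replication genes, the level was 4422 CPM (4007 to 4868) in the cyclin E cells, 3123 CPM (2912 to 3346) in the cyclin A cells and 2352 CPM (2252 to 2455) in the cyclin B cells. Over 57 mitotic genes without the cyclins the order was opposite, at 3561 CPM (3190 to 3964), 4387 CPM (4136 to 4649) and 6421 CPM (6255 to 6590). Among these 3 classes the 15 Hist1 genes were highest in the cyclin A cells, at 1737 CPM (1580 to 1905), against 1361 CPM in the cyclin E and 1218 CPM in the cyclin B cells, but still higher, at 2201 CPM (1982 to 2437), in the 36 cells that had cyclin E together with A or B and were counted by their A or B. *Cdc20* had 0 UMIs in the 24 cyclin E cells, with an interval of 0 to 39.2 CPM. It stood at 73.2 CPM (44.1 to 114) in the cyclin A cells and 165 CPM (140 to 194) in the cyclin B cells.

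**Figure D5:**
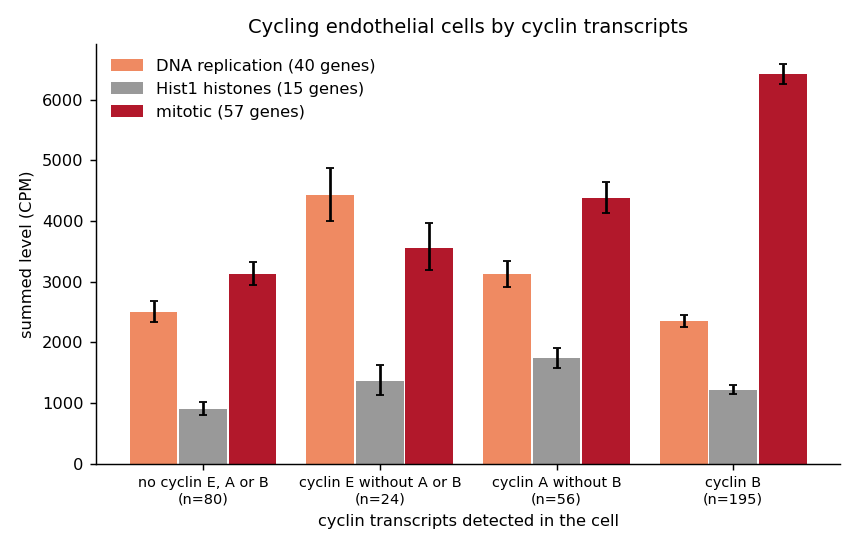
Summed levels (CPM, vertical axis) of 40 replication genes, 15 Hist1 genes and 57 mitotic genes in cycling endothelial cells sorted by the cyclin they had a UMI of (horizontal axis, with the number of cells); error bars are 95% Poisson intervals. From the cyclin E to the cyclin B cells the replication genes run from 4422 down to 2352 CPM and the mitotic genes from 3561 up to 6421 CPM, and among the classes drawn Hist1 genes are highest, at 1737 CPM, in the cyclin A cells.

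The classes were not sharp. Of the 355 cells, 36 (10.1%) had cyclin E together with A or B, and 91 had both A and B. The 80 cells without any of these cyclins had 2497 CPM of replication genes and 3134 CPM of mitotic genes, and their median depth of 3517.5 UMIs was below the 4014 UMIs of the cyclin B cells. A cyclin at these levels is often missed in a cell, so the classes are ranges and not phases.

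Endothelial genes outside the rule were mostly somewhat lower than in non-cycling cells. Of 21 such genes 18 had ratios below 1, with a median of 0.877 beside 0.992 for all genes, and 20 were within 1.5-fold. None was 2-fold higher or lower, beside 2.25% and 0.192% of all genes, so that the counts of 0 for this and the following lists are near the background and are no result about the lists. The most abundant, *Gpihbp1*, which carries lipoprotein lipase onto the capillary surface, stood at 1513 CPM (90.1% of cells) against 2055 CPM (84.8%), a ratio of 0.736 (0.699 to 0.776). *Flt1*, a decoy receptor for VEGF, had 781 CPM against 990 CPM, and the junction gene *Cldn5* had 626 CPM against 753 CPM. The transcription factor gene *Erg* had 119 CPM against 113 CPM. The lowest ratio was that of *Ptprb* (VE-PTP, a phosphatase that restrains the receptor TEK), at 420 CPM against 747 CPM. *Plvap*, which the rule used and which is given as a description, was also lower, at 707 CPM (666 to 750) against 1236 CPM (1184 to 1290). It was detected in 86.8% and 82.5% of cells at their unequal depths and in 45.8% and 66.3% after thinning to 1000 UMIs. Its ratio after adding 10 CPM was 0.576, and 0.487, past the limit, after the same thinning.

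Genes of VEGF and angiopoietin signalling, 10 compared members (of 13, *Kdr* being among those the rule used), had a median of 0.894, with 0 past 2-fold. *Nrp1* and *Nrp2*, co-receptors of VEGF, stood at 388 against 479 CPM and 372 against 416 CPM, and *Tek*, the angiopoietin receptor, at 356 against 401 CPM. Genes of sprouting tip cells gave 0 of 11 past 2-fold and a median of 0.912. *Esm1*, a proteoglycan of tip cells, was detected in 15.5% of cycling and 10.9% of non-cycling cells, at 72.7 and 80.6 CPM. *Igfbp3*, which binds insulin-like growth factors, had 69.5 CPM against 127 CPM. Of 11 Notch pathway genes 0 passed, with a median of 0.870. The receptors *Notch1* (129 against 150.4 CPM) and *Notch4* (68.2 against 74.0 CPM) and the target *Hes1* (222 against 277 CPM) were all within 1.5-fold.

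Capillary genes likewise gave 0 of 11 past 2-fold, with a median of 0.832. *Fabp4*, a fatty acid carrier, was detected in 99.7% of cycling cells at 5057 CPM against 5617 CPM, and *Ehd3*, a membrane trafficking gene, had 1533 CPM against 1542 CPM. *Nr2f2*, a transcription factor of venous identity, was in 82.8% of cycling cells (687 CPM) and 63.8% of non-cycling cells (769 CPM). *Vwf*, the clotting factor of larger vessels, had 1 UMI in cycling cells and 29 in non-cycling cells, a ratio of 0.0371 (0.000909 to 0.224). After 10 CPM was added the ratio was 0.391, and *Vwf* was the only one of 6 venous genes past 2-fold. Endothelial cells with 1 or 2 cell cycle genes had 12 UMIs of it, 5.02 CPM, so the call rests on the choice of non-cycling cells.

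Arterial genes had a median of 0.718 over 8 compared members (of 12), close to the 0.719 of the 6 venous genes. Of these 8 arterial genes 3 were lower and 0 higher, beside 0.192% and 2.25% of all genes. *Mgp*, a matrix protein that inhibits calcification, had 85 UMIs in 19 cycling cells (5.35%, 3.25% to 8.23%) and 628 UMIs in 112 non-cycling cells (13.4%, 11.2% to 15.9%), or 54.2 CPM against 372 CPM. Of the 85 UMIs 41 were in 1 cell. *Fbln5* and *Fbln2*, fibulins of elastic fibres and of the vessel wall, stood at 8.29 against 40.3 CPM and at 27.4 against 81.1 CPM. In endothelial cells with 1 or 2 cell cycle genes *Mgp* stood at 105 CPM and *Fbln2* at 30.5 CPM. The lower call of *Fbln2* thus rests on the choice of non-cycling cells. *Mgp* was detected in 5.91% of the cells with 1 or 2 cell cycle genes, near its share of cycling cells. The size of its difference therefore depends on that choice too. Set against all endothelial cells with under 3 cell cycle genes, the ratio of *Mgp* was 0.285. *Efnb2*, the ligand that marks arterial endothelium, had 115 CPM against 155 CPM. Cells with at least 3 arterial genes made up 3.10% of the cycling cells (1.56% to 5.48%), 5.11% of the endothelial cells with 1 or 2 cell cycle genes and 6.10% of the non-cycling cells (4.58% to 7.94%), although the cycling cells were the deepest. Of the 100 endothelial cells with at least 3 arterial genes, 11 were cycling (11%, 5.62% to 18.8%), against 18.3% of all endothelial cells. The list was not confined to endothelial cells, since at least 3 of its genes were present in 6.24% of chromaffin cells. It summed to 799 CPM in non-cycling chromaffin cells, 763 CPM in non-cycling and 268 CPM in cycling endothelial cells. These shares are therefore no measure of arterial identity, and the part of chromaffin RNA in them was not tested.

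Of the 7 lymphatic genes, which summed to 342 CPM against 471 CPM, 4 could be compared and 0 passed 2-fold. *Pdpn* and *Ccl21a* had 0 UMIs in both groups, and *Prox1*, the master regulator of lymphatic endothelium, had 15.3 CPM against 18.4 CPM. *Flt4*, which fenestrated capillaries also use, had 190 CPM against 188 CPM, and *Lyve1* had 133 CPM against 261 CPM.

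Genes of Wnt reception were surveyed because the study asked how Wnt ligands act in the medulla. Of 13 compared members (of 20) 0 passed 2-fold, with a median of 0.916. *Fzd4*, the main frizzled receptor of endothelium, was detected in 41.4% of cycling cells at 143 CPM against 171 CPM, the co-receptor *Lrp6* stood at 41.5 against 46.8 CPM, and the nuclear effector *Tcf7l1* at 72.1 against 78.8 CPM. *Axin2*, a general Wnt target named after its values were seen, had 0 UMIs in all 355 cycling and all 836 non-cycling endothelial cells, which by the floor of 3 UMIs allows up to 1.91 CPM in the cycling cells. In the 117 cycling chromaffin cells *Axin2* had 29 UMIs, 32.9 CPM.

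Metabolic genes were taken from 2 lists, whose counts stand beside 2.25% higher and 0.192% lower of all genes. Of 15 genes of nucleotide and one-carbon synthesis 2 were higher, *Psat1* (serine synthesis, 34.4 against 11.8 CPM) and *Mthfd2* (mitochondrial folate cycle, 26.8 against 8.29 CPM), with a median of 1.14. Of 14 glycolysis genes 0 passed, with a median of 0.989, and *Gapdh* stood at 616 against 489 CPM. Junction genes (6 compared of 10, median 0.838) also had 0 past 2-fold, *Tjp1* being at 233 against 206 CPM. Immediate-early and heat shock genes, which enzymatic digestion is known to induce, gave 0 of 14 past 2-fold with a median of 0.836, and *Jun* had 1780 CPM against 2128 CPM.

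Of the 20 genes with the smallest ratios among those detected in at least 25% of either group, 1 passed 2-fold. This was *Slfn5*, an interferon-inducible gene, at 163 CPM against 349 CPM, 0.467-fold (0.402 to 0.542), and set against all endothelial cells with under 3 cell cycle genes its ratio of 0.539 did not pass. *Clec2d*, a lectin-like ligand, had 117 CPM against 222 CPM and *Cd300lg*, a capillary glycoprotein, 77.8 CPM against 137 CPM. *Apoe*, which carries lipid, had 460.5 CPM against 798 CPM, the glycolytic *Aldoa* 89.3 CPM against 161 CPM and the heat shock gene *Hspa1b* 107 CPM against 194 CPM. *Malat1*, a nuclear RNA, stood at 19679 CPM against 31486 CPM.

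Markers of other cell types were low in the cycling endothelial cells, and their part in the differences was not tested. The 10 immune genes summed to 356 CPM against 471 CPM, led by *C1qa* at 84.2 CPM, with none at 0 and *Ptprc* at 7.65 CPM. At least 3 of them were present in 11 cycling cells (3.10%) and in 14 of the shallower non-cycling cells (1.67%). The 7 fibroblast genes summed to 42.7 CPM against 69.9 CPM, led by *Col1a2*, with *Lum* at 0, and the 6 glial genes to 8.93 CPM against 20.1 CPM, with *Cdh19* at 0. The 10 mural genes summed to 158 CPM against 204 CPM, mostly from *Kcnj8* (69.5 CPM) and *Abcc9* (68.9 CPM), while *Acta2* and *Cspg4* were at 0 and *Pdgfrb* and *Rgs5* at 3.83 and 0.638 CPM. The 7 chromaffin genes of the rule summed to 122 CPM, against 256 CPM in non-cycling endothelial cells and 53223 CPM in cycling chromaffin cells, with *Chgb* the highest. The 9 cortex genes summed to 573 CPM, against 761 CPM in non-cycling endothelial cells and 19168 CPM in cycling cortex cells, with *Scarb1* the highest, and at least 3 of them were present in 44 cycling cells (12.4%) and 7.30% of the shallower non-cycling cells.

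Red cell RNA was the largest difference of this kind. The 5 erythroid genes summed to 295 CPM against 4721 CPM in non-cycling cells, with all 4 compared genes lower, *Alas2* at 0 in cycling cells and *Hbb-bs* the highest. Of 7962 haemoglobin UMIs in the non-cycling cells 93.3% were in 10 cells, and of 463 in the cycling cells 64.6% were in 1. Haemoglobin was detected in 24.5% of cycling and 21.3% of non-cycling cells.

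Cycling endothelial cells were last set beside the cycling cells of the other 2 lineages over the 154 compared genes of 8 cell cycle lists. Against cycling chromaffin cells, 8 of the 154 were 2-fold higher and 1 lower, with a median ratio of 1.20, where 10.6% of all genes were higher and 13.4% lower. Against cycling cortex cells 4 were higher and 2 lower, with a median of 1.06, where 10.3% of all genes were higher and 9.31% lower. *Ccnd1* was the cell cycle gene that differed most from both, at 620 CPM in cycling endothelial cells, 71.5 CPM (55.0 to 91.5) in cycling chromaffin cells and 19.2 CPM (14.4 to 25.1) in cycling cortex cells. *Ccnd2* stood at 318, 317 and 117 CPM in the same order. *Espl1*, the protease separase, was the other gene higher than in both, at 35.1, 12.5 and 11.2 CPM. *Zwint*, a kinetochore protein, was lower than in chromaffin cells, at 35.1 against 230.5 CPM, and was also high in non-cycling chromaffin cells (211 CPM). *Cenpm*, a centromere protein, had 135 CPM against 476 CPM in cycling cortex cells, and *Anapc13* had 121 CPM against 310 CPM. Of the 154 genes, 121 were 2-fold higher than in the non-cycling cells of the lineage in endothelial cells, 117 in chromaffin cells and 123 in cortex cells. Over all genes 2.64% were higher in cycling than in non-cycling chromaffin cells and 2.61% in cortex cells, beside the 2.25% of endothelial cells. The same 6 genes chose the cycling cells of each lineage, so these counts and their overlap describe the choice and nothing is read from them. In endothelial and chromaffin cells 108 of them were shared (89.3% and 92.3% of the lists), and in endothelial and cortex cells 113 (93.4% and 91.9%).

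Cells of both sexes were cycling. Of the 204 cycling endothelial cells with *Xist*, the RNA of the inactive X chromosome, or a Y-linked gene (*Ddx3y*, *Eif2s3y*, *Uty* or *Kdm5d*) but not both, 70 had *Xist* (34.3%, 27.8% to 41.3%), against 187 of 396 non-cycling cells (47.2%, 42.2% to 52.3%). After thinning to 1000 UMIs the shares were 61 of 107 (57.0%, 47.1% to 66.5%) and 141 of 255 (55.3%, 49.0% to 61.5%), so the difference was present only at unequal depth. Only 3 cycling cells had both *Xist* and a Y-linked gene.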

How the data were processed

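The authors prepared the library with 10x Genomics 3′ v3.1 chemistry and deposited integer UMI counts per gene and barcode, made per the submitters' processing notes with Cell Ranger 4.0.0 on mm10, without normalisation. Fragments are counted by molecule at the 3′ end, so a level is not divided by gene length. From these counts UMIs were summed per group of cells and divided by the group's total (CPM). Levels carry exact Poisson intervals, ratios exact conditional intervals and shares Clopper-Pearson intervals, all at 95%. Cells are not replicates and no p-value was computed. Genes with a UMI in under 1% of kept barcodes were left out, and 10 CPM was added for counts of genes past 2-fold. Doublets were called with Scrublet (scanpy 1.11.5) but kept. Median depth was 3567 UMIs over the 10139 barcodes kept, and the interval of a level resting on 10 UMIs spans about a factor of 2 either way. Analyses used Python 3.11.15, numpy 2.4.6, scipy 1.17.1, pandas 2.3.3 and matplotlib 3.10.9. Start regions came from RefSeq for GRCm38.p6, the same primary assembly as mm10. Named are, of each list, up to 4 genes with the most UMIs or, past the fold, the largest ratios, and the 20 largest and 20 smallest ratios among genes detected in at least 25% of either group. Members not past 2-fold, where few, are also named. The members and lists were chosen with earlier results of these data known. The other library of the study is not analysed here.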

Additional observations from a re-analysis of the deposited data

How the results depend on the processing

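With 1 library, 8 to 14 alternatives of filter, rule, depth, comparison cells and scale were tried for each result. Of the folds and medians, only the fold of *Esm1* (0.689 to 1.03) and the median of kinase inhibitors and quiescence genes (0.862 to 1.07) lay on both sides of 1. The share of endothelial cells that cycle was 24.9% in cells with 1000 genes or more and mitochondrial UMIs of 10% or less, 14.0% with at least 4 of the 6 cell cycle genes and 20.2% with at least 5 of the 7 endothelial genes. Choosing members after thinning to 2000 UMIs gave 210 cells. The count of genes 2-fold higher, 282 as reported, was 675 with 1 CPM added in place of 10 and 227 to 412 otherwise. The count of genes lower, 24 as reported, was the least stable: 215 after thinning to 1000 UMIs, 203 with members chosen after thinning, 55 in cells of 2000 to 8000 UMIs, 39 as a mean over cells, 601 with 1 CPM added and 7 against endothelial cells with under 3 cell cycle genes. Against those cells the fold of *Mki67* was 17.1, that of *Top2a* 12.4 and that of *Pclaf* 5.95 in place of 19.3. With 1 CPM added the fold of *Mki67* was 86.3. The fold of *Mgp* ran from 0.0750 to 0.403, that of *Plvap* from 0.487 to 0.716, that of *Ptprb* from 0.527 to 0.654, and the median of endothelial genes outside the rule from 0.804 to 0.878. *Slfn5* (0.539) was inside the 2-fold limit and the median of replication genes was 1.77 against endothelial cells with under 3 cell cycle genes, and *Plvap* (0.487) was outside it after thinning. Besides *Mki67* and *Top2a*, of the values for single genes and lists 492 moved by less than their counting interval and 54 by more. The cause was not tested. No paired analysis was possible because there is 1 library, and no replicate could be left out. Levels resting on under 10 UMIs are the least precise.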

Other observations

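Among the 150 genes that were 2-fold higher in cycling endothelial cells and in no list, some were abundant and were picked after their values were seen. Tubulins, the subunits of microtubules, were among them, with *Tubb5* at 1372 against 392 CPM, *Tuba1b* at 833 against 192 CPM and *Tubb4b* at 573 against 134 CPM. *Stmn1*, which destabilises microtubules, stood at 759 against 101 CPM. Genes of the nuclear envelope and of nuclear transport included *Lmnb1* (lamin B1) at 260 against 20.7 CPM, *Tmpo* at 404 against 102 CPM and *Ran* at 625 against 284 CPM. *Gmnn* (geminin), which blocks a further round of replication, had 108 against 21.9 CPM, and *Ezh2*, the methyltransferase of H3K27, had 115 against 27.8 CPM. The same contrast chose the cells, so these values are a description.

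Of the 24 genes lower in cycling endothelial cells, 7 were in the erythroid, chromaffin, cortex or immune lists, and *Lyz2*, a lysozyme of macrophages, was the immune one at 29.3 against 93.0 CPM. Outside these lists *Ccn2*, a matrix-associated growth factor, *Igfbp5* and *Il33*, an alarmin of endothelial nuclei, were also among the 24. So were *Npy* (30.0 against 72.3 CPM, with 31.1% of the non-cycling UMIs in 1 cell) and *Slc18a2* (3.19 against 19.0 CPM). The 7 therefore need not be all the genes of other cell types.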
